A study of Homo sapiens with 12 samples.

Results

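The annexin family is represented here by 10 genes, ANXA1, ANXA2, ANXA3, ANXA4, ANXA5, ANXA6, ANXA7, ANXA9, ANXA11 and ANXA13, out of 57820 genes in the count tables. The genes were chosen by name, and the family was selected because ANXA1 was much higher in the RNA polymerase II mutant libraries of this study. The contrast of mutant with wild-type polymerase is therefore given as a description, without a test for these genes. The contrasts after PADI2 knockdown were not the stated ground of that choice and carry tests. The members were chosen with earlier results of these data known, and the mutant libraries also had little PADI2 RNA. These tests may therefore not be independent of the choice.

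The RNA came from T47D-MTVL cells, a line derived from the luminal breast cancer line T47D that carries an MMTV-luciferase reporter. All cells were kept in medium without phenol red and with charcoal-treated serum, and no library came from hormone-treated cells. In poly(A) RNA, 2 libraries from cells transfected with an siRNA against PADI2 (siPADI2) were set against 2 libraries with a control siRNA (siCtrl). A further 2 poly(A) libraries labelled R1810 mutant RNAP2 were set against 2 labelled WT RNAP2. In both of these groups an HA-tagged, amanitin-resistant polymerase was expressed for 24 hours and the cells then spent 12 hours in 6 µg/ml alpha-amanitin, the toxin that blocks the cells' own polymerase. In chromatin-associated RNA, 2 siPADI2 libraries were set against 2 siCtrl libraries. PADI2 is an enzyme that converts arginine in proteins to citrulline, and R1810 names an arginine of the repeat tail of polymerase II's largest subunit. The siRNAs and the polymerases were introduced by transfection, and the labels give neither its efficiency nor whether replicates are separate cultures; p-values therefore reflect library-to-library spread only, possibly technical.

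Annexins are cytosolic proteins that bind acidic phospholipids of membranes when calcium rises. They share a conserved core and differ in their N-terminal tails, which bind partners such as S100 proteins. In epithelial cells they take part in vesicle traffic, in the links between membrane and actin, and in the sealing of torn plasma membrane. ANXA1 is known as a glucocorticoid-induced protein that limits inflammation through formyl peptide receptors.

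Total counts were 44318629 to 132764704 in the poly(A) libraries and 2720080 to 7040541 in the chromatin libraries, so chromatin values are the less precise. PADI2 itself had 1.83 and 1.88 CPM (counts scaled to the library's size) in siPADI2 poly(A) libraries, against 23.96 and 22.61 CPM in siCtrl. The libraries labelled R1810 also had little PADI2 RNA, at 3.13 and 2.35 CPM against 48.86 and 50.70 CPM in WT, for which the labels give no reason. Gene counts cannot show the R1810 change itself. POLR2A, the gene of that subunit, averaged 361.6 ± 1.53 CPM in R1810 and 521.4 ± 9.99 CPM in WT, and 308.6 ± 3.89 CPM in siPADI2 and 445.2 ± 62.0 CPM in siCtrl (SD, n = 2 each). In chromatin RNA PADI2 had 8.52 and 14.17 CPM after siPADI2, against 34.86 and 32.54 CPM after siCtrl. The 10 luminal epithelial markers summed to 6080 to 7535 CPM in the siPADI2 and R1810 poly(A) libraries, and to 10040 to 11300 CPM in siCtrl and WT, and all of them were detected in every library. The 7 basal markers summed to 9.13 to 15.3 CPM in the siPADI2 and R1810 poly(A) libraries and to 15.5 to 29.3 CPM in siCtrl and WT, mostly from MYLK and ACTA2, with KRT5 at 0 counts in 7 of the 8. The 6 fibroblast markers summed to 102.2 to 154.5 CPM in siPADI2 and R1810 and to 153.0 to 247.7 CPM in siCtrl and WT, mostly from FN1 and COL1A1. The 4 immune markers summed to at most 0.384 CPM in poly(A) RNA. The part of these markers in the annexin results was not tested.

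Levels of different annexins were compared per kilobase of exon (CPM per kb), over the exonic lengths of the count tables. In siCtrl poly(A) RNA the order ran from ANXA6 at 179.9 ± 1.18 CPM per kb through ANXA5 at 114.0 ± 7.58, ANXA9 at 86.4 ± 1.17, ANXA2 at 84.7 ± 4.26 and ANXA7 at 71.5 ± 4.29 (SD, n = 2 each). ANXA9 and ANXA2 were closer than their spread. A lower set followed, with ANXA11 at 16.7 ± 0.598, ANXA3 at 5.91 ± 0.236, ANXA4 at 5.23 ± 0.212 and ANXA1 at 1.38 ± 0.0729 CPM per kb (SD, n = 2 each). ANXA13, an annexin known from intestine, stood at 0.00947 ± 0.00443 CPM per kb (SD, n = 2), from 2 and 3 counts. ANXA1 was thus the least abundant of the 9 annexins with clear poly(A) signal in siCtrl cells. In siPADI2 poly(A) RNA ANXA1 averaged 6.75 ± 0.523 CPM per kb, above ANXA11 at 4.90 ± 0.0753 (SD, n = 2 each). In the R1810 libraries ANXA1 averaged 14.8 ± 0.590 CPM per kb and stood at rank 6 of the 10, against rank 9 in WT at 3.08 ± 0.0267 (SD, n = 2 each). Per length of the longest coding sequence in place of exonic length, 4 of the 10 genes kept their rank in siCtrl, among them ANXA1 and ANXA13, and ANXA2 moved to rank 1. By coding length ANXA1 stood at rank 8 in R1810 and rank 9 in WT.

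**Figure D1:**
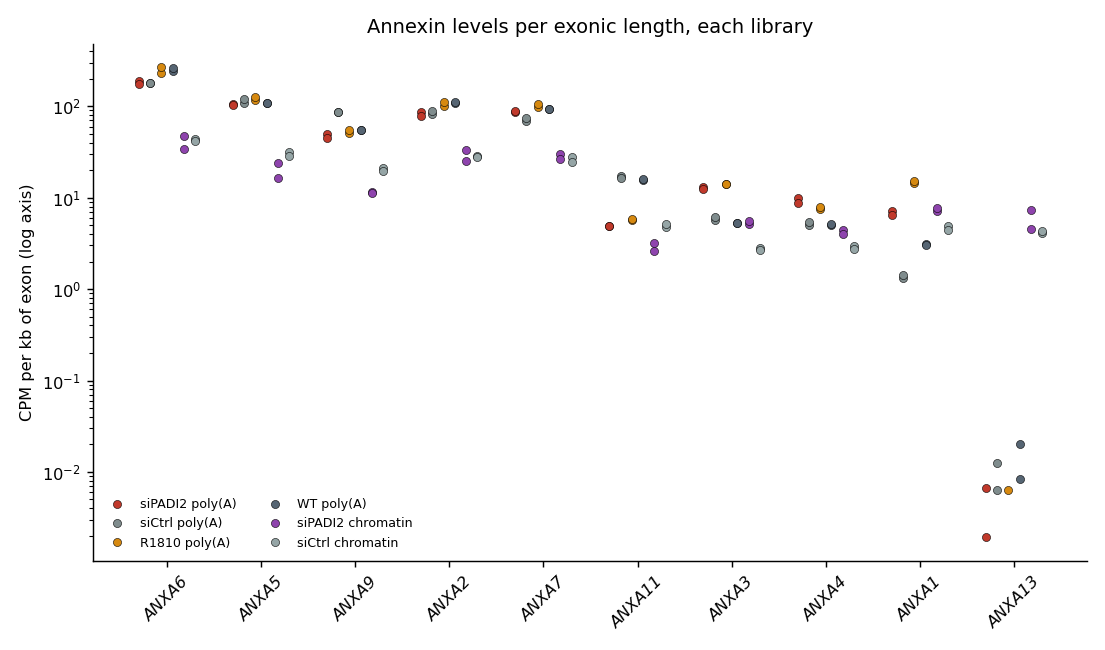
Points are single libraries, the y axis is CPM per kb of exon on a log scale, and genes run from left to right by their level in siCtrl poly(A) RNA. The library with no ANXA13 count is not drawn. ANXA13 is the lowest gene in poly(A) RNA and lies with the other low annexins in chromatin RNA.

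ANXA1 lies on chromosome 9 (hg19, 75766673 to 75785309, plus strand), ANXA3 on chromosome 4 (79472673 to 79531597, plus strand), ANXA9 on chromosome 1 (150954493 to 150968110, plus strand) and ANXA11 on chromosome 10 (81910645 to 81965328, minus strand), per the count tables. All are protein-coding genes, and their values are fragments over exons. ANXA7 lies on the same chromosome and strand as ANXA11 (75134859 to 75173834), and ANXA5 on the same chromosome as ANXA3 (122589110 to 122618268, minus strand). ANXA2 (chromosome 15, 60639333 to 60695082, minus strand) has near-identical processed copies elsewhere in the genome, so its count is uncertain. The copy ANXA2P2 had 8.54 and 4.77 CPM in siPADI2 poly(A) libraries and 7.44 and 6.31 CPM in siCtrl, which is little beside ANXA2.

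Promoter windows from RefSeq (GRCh38.p14, a different build from the hg19 of the counts) are described for 9 of the 10 genes. ANXA13 was left out of the promoter search. Each window spans 250 bases before to 50 bases after an annotated start. Shown are 4 of the 6 genes with a single window among these 9. They are ANXA1 and ANXA3, which rose after PADI2 knockdown, ANXA9, which fell, and ANXA2, which did not pass the test. Capitals mark the TATA box TATAAA, the CCAAT box, the GC box GGGCGG and the AP-1 motif TGACTCA on either strand, read 5′ to 3′ along the gene's strand.
ANXA1, chr9:73151615-73151914, plus strand: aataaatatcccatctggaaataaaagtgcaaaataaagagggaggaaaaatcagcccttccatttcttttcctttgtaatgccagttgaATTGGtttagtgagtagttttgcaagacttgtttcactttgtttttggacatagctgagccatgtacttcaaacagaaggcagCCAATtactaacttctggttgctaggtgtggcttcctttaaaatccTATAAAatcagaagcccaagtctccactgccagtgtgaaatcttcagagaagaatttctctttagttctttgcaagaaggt
ANXA3, chr4:78551520-78551819, plus strand: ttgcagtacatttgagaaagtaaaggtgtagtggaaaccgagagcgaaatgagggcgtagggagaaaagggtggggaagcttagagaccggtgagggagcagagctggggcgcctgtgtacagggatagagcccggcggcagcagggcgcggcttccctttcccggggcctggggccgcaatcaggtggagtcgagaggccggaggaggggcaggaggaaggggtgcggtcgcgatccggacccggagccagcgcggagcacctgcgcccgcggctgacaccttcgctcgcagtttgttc
ANXA9, chr1:150982042-150982341, plus strand: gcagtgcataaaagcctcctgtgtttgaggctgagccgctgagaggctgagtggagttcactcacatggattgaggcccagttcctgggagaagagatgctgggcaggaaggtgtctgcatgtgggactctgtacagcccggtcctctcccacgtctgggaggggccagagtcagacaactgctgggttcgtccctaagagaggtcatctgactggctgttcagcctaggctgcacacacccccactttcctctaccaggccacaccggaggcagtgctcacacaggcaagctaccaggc
ANXA2, chr15:60397937-60398236, minus strand: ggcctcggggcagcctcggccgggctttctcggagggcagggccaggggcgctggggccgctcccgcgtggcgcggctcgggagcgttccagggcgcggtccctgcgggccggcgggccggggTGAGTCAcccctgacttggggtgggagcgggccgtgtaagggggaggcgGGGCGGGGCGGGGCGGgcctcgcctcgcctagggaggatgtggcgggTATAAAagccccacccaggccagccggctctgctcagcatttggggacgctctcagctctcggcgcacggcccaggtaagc

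The ANXA1 window held no CpG and had 37.7% GC, where 3.96% of the 35116 windows of this length held no CpG and the median GC was 58.7%. It held TATAAA at position −31 from the start, as did the ANXA2 window, and TATAAA occurs in 11.5% of all windows. It also held CCAAT at −77 and, on the other strand, at −160, a motif found in 34.6% of windows. The ANXA3 window had 64.7% GC and 25 CpG, and the ANXA9 window 59.0% GC and 5 CpG, and neither held any of the 7 motifs searched. The ANXA2 window had 76.0% GC and 32 CpG, with 3 copies of GGGCGG that overlap by 1 base and 1 TGACTCA on the other strand. GGGCGG occurs in 45% of windows and TGACTCA in 4.95%. The other motifs searched were AGAACA (14.8% of windows), TGACGTCA (1.85%) and GTAAACA (3.42%), of which AGAACA occurred in 2 of the 3 windows of ANXA11. A match is a description of these letters only, and the windows of the 2 rising genes shown had little in common in base composition.

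After PADI2 knockdown, poly(A) RNA of 4 annexins rose, of 2 fell, and of 3 did not pass the test. ANXA1 rose 4.87-fold, ANXA3 2.17-fold, ANXA4 1.77-fold and ANXA7 1.23-fold. ANXA11 fell 3.41-fold and ANXA9 fell 1.82-fold. Tests were edgeR's quasi-likelihood test with Benjamini-Hochberg adjustment over 18720 genes. In that fit 28.8% of all genes were called higher and 27.9% lower, so a count of 6 called among 9 annexins is close to the background. The median log2 fold change of the 9 tested annexins was 0.01, beside 0.005 for all genes tested.

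ANXA1, the inflammation-limiting annexin, had 32.5 and 29.1 CPM in siPADI2 libraries, against 6.04 and 6.52 CPM in siCtrl libraries. Both knockdown libraries were far above both controls. The log2 fold change was 2.28 (SE 0.110, edgeR adjusted p = 1.93e-20), which ranked 208 from the highest of 18720 genes. In these bulk samples, more cells that express a gene and more RNA per cell cannot be told apart. The same holds for fewer cells and less RNA per cell where a gene fell.

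ANXA3, a calcium-dependent phospholipid-binding annexin, had 67.2 and 64.2 CPM in siPADI2 libraries, against 29.4 and 31.1 CPM in siCtrl. Its log2 fold change was 1.12 (SE 0.0881, edgeR adjusted p = 6.49e-14). ANXA4, an annexin of epithelial apical membranes, had 97.8 and 86.9 CPM in siPADI2 libraries, against 50.5 and 53.5 CPM in siCtrl. The groups of both genes were well apart, and the ANXA4 log2 fold change was 0.83 (SE 0.0858, edgeR adjusted p = 1e-10). ANXA7, known as synexin for its part in granule fusion, had 250.4 and 253.8 CPM in siPADI2 libraries, against 196.1 and 213.4 CPM in siCtrl. Its groups did not overlap but the change was small, with a log2 fold change of 0.30 (SE 0.0834, edgeR adjusted p = 0.00233).

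ANXA11, a long-tailed annexin that tethers RNA granules to lysosomes, had 43.5 and 42.5 CPM in siPADI2 libraries, against 150.5 and 143.1 CPM in siCtrl. It showed the largest fall of the 9 annexins tested, with a log2 fold change of −1.77 that ranked 570 from the lowest of all genes (SE 0.0842, edgeR adjusted p = 1.46e-20). ANXA9, an annexin whose core has lost its calcium-binding sites, had 91.5 and 81.9 CPM in siPADI2 libraries, against 159.2 and 156.2 CPM in siCtrl. Its log2 fold change was −0.86 (SE 0.0837, edgeR adjusted p = 1.81e-11). The 2 falling genes had non-overlapping groups.

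The 3 annexins that did not pass were the abundant ANXA2, ANXA5 and ANXA6. ANXA2, which forms a complex with S100A10, had 765.8 and 685.2 CPM in siPADI2 libraries and 720.5 and 773.7 CPM in siCtrl, and the groups overlapped (log2 fold change −0.04, SE 0.0887, edgeR adjusted p = 0.709). ANXA5, the phosphatidylserine binder used to stain dying cells, had 322.3 and 309.1 CPM in siPADI2 libraries and 329.5 and 362.0 CPM in siCtrl (log2 fold change −0.13, SE 0.0849, edgeR adjusted p = 0.187). ANXA6, which carries a duplicated annexin core, had 1017 and 951.6 CPM in siPADI2 libraries and 980.9 and 971.8 CPM in siCtrl (log2 fold change 0.01, SE 0.0875, edgeR adjusted p = 0.921). With total counts as library sizes, which moved the median of all genes by 0.18 on the log2 scale and the share of calls that were higher to 67.0% (50.8% with TMM), ANXA2 stood at 0.14, ANXA5 at 0.05 and ANXA6 at 0.19 (edgeR adjusted p = 0.0409). The 6 called annexins kept their direction and their call under all 11 alternatives tried. Of the 10 luminal markers, 1 rose and 7 fell in the same comparison, and their part in the annexin results was not tested.

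**Figure D2:**
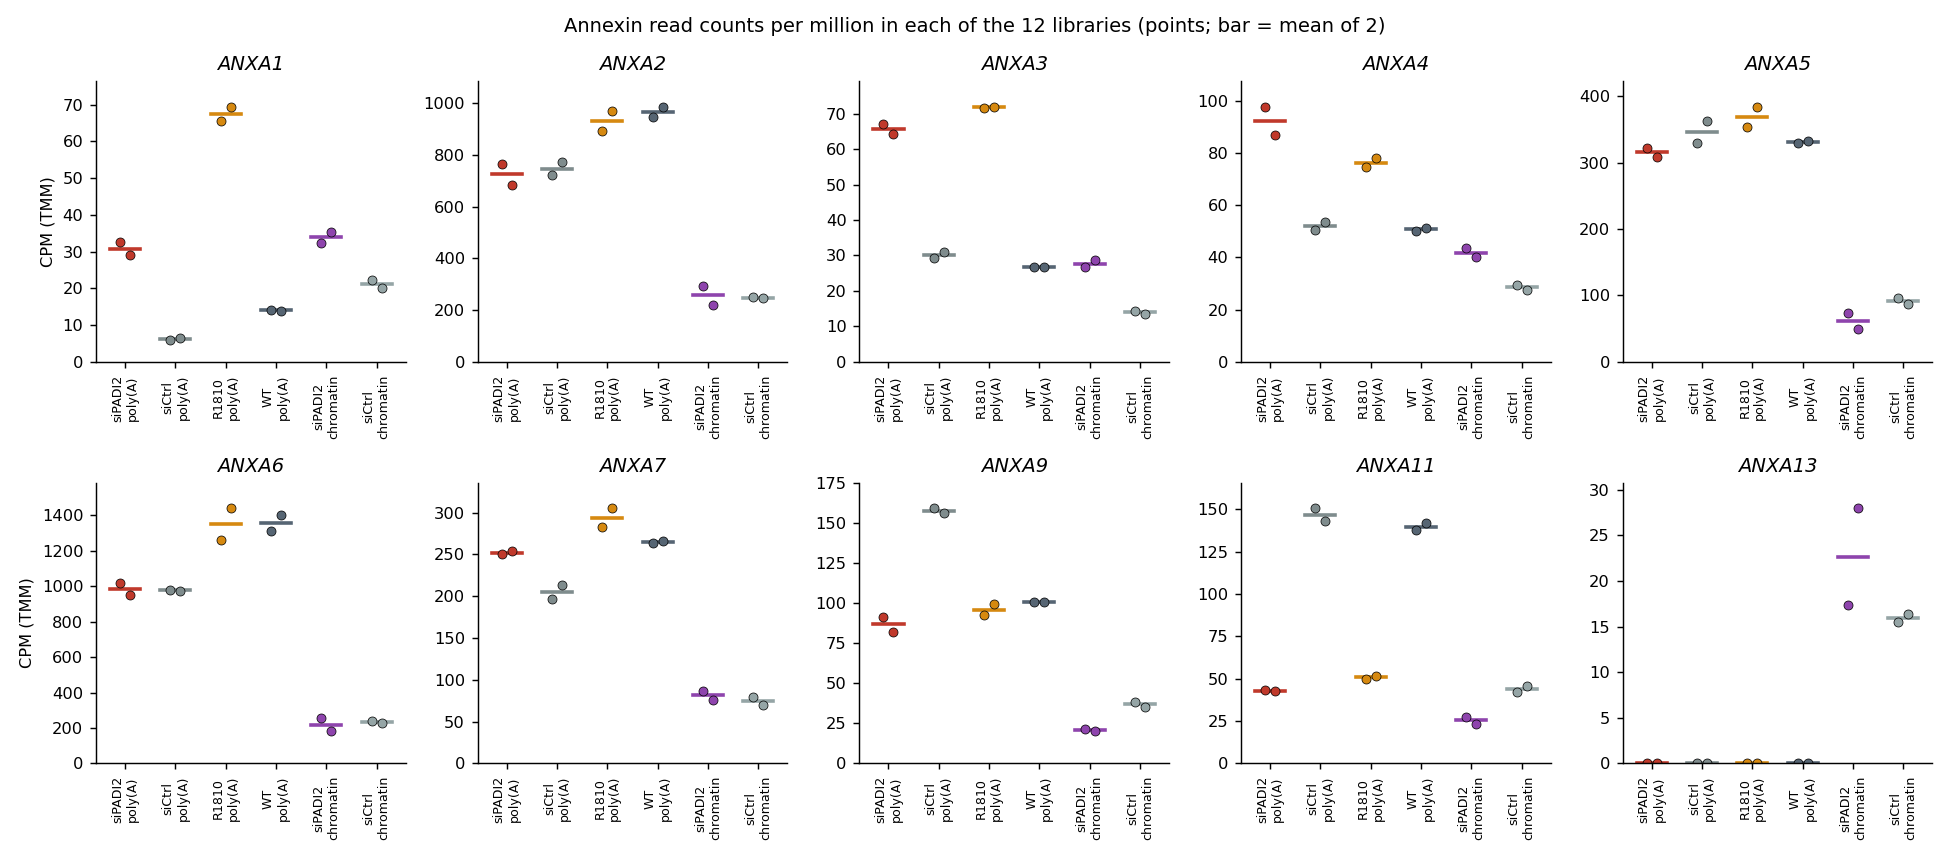
Each panel is 1 annexin, points are the 2 libraries of a group, bars are their mean, and the y axis is CPM from 0. ANXA1, ANXA3 and ANXA4 are higher and ANXA11 is lower in the siPADI2 and R1810 poly(A) libraries than in their controls, and ANXA9 is lower after siPADI2.

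In the libraries labelled R1810 against WT, the contrast the family was chosen on, the values are a description. ANXA1 had 65.7 and 69.5 CPM in R1810 libraries, against 14.13 and 13.96 CPM in WT, a log2 fold change of 2.27 (SE 0.0642) or 4.81-fold. The R1810 and WT libraries were scaled separately from siPADI2 and siCtrl, so levels set across the pairs are approximate. The share of genes past the threshold in this fit of 19202 genes was 22.6% higher and 24.3% lower, and 3 annexins were past it in the higher direction and 1 in the lower, counts from which nothing is read because this contrast chose the family.

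ANXA3 had 71.5 and 72.0 CPM in R1810 libraries, against 26.8 and 26.8 CPM in WT, a 2.68-fold difference (log2 fold change 1.42, SE 0.0583). ANXA4 had 74.5 and 77.9 CPM in R1810 libraries, against 50.2 and 51.4 CPM in WT (log2 fold change 0.59, SE 0.0581). ANXA11 had 50.1 and 51.8 CPM in R1810 libraries, against 137.6 and 141.8 CPM in WT, 2.74-fold lower (log2 fold change −1.46, SE 0.0589). In each of these 3 genes the groups lay far apart, and the siCtrl and WT levels were close to each other. For ANXA1 the siCtrl and WT levels were not close, at 6.04 and 6.52 CPM in siCtrl and 14.13 and 13.96 CPM in WT.

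ANXA9 was close to WT in the R1810 libraries. It had 92.5 and 99.2 CPM in R1810 libraries and 100.5 and 100.6 CPM in WT, a log2 fold change of −0.07 (SE 0.0598), beside −0.86 after siPADI2. WT cells thus had an ANXA9 level near that of siPADI2 cells and under the siCtrl level of 157.7 ± 2.13 CPM (SD, n = 2). ANXA5 had 353.5 and 384.5 CPM in R1810 libraries and 330.0 and 332.4 CPM in WT (log2 fold change 0.16, SE 0.0692), and ANXA7 282.5 and 305.1 CPM against 263.9 and 266.1 CPM (0.15, SE 0.0667). ANXA2 had 893.0 and 970.8 CPM in R1810 libraries and 946.8 and 987.2 CPM in WT, and ANXA6 1261 and 1440 CPM and 1312 and 1405 CPM, with overlapping groups in both. ANXA13 had 3 and 0 counts in R1810 libraries and 4 and 10 in WT, where a count of 0 allows up to 0.0236 CPM, counting error only.

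**Figure D3:**
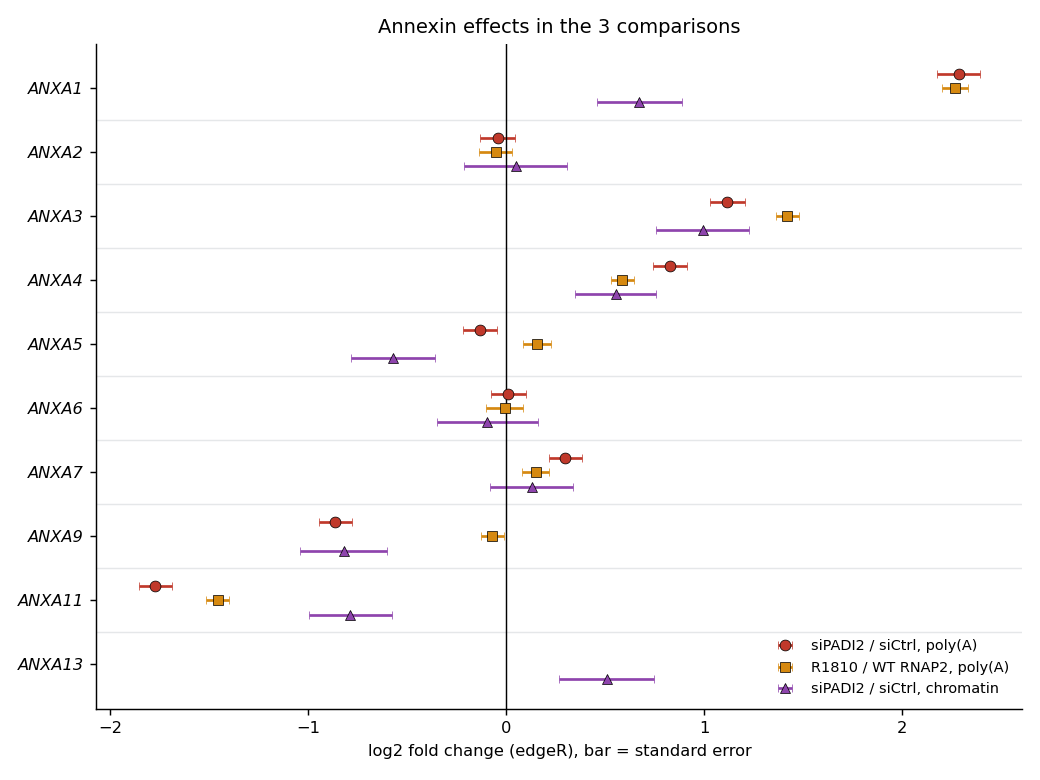
Points are log2 fold changes from edgeR and bars their standard errors, with 1 row per annexin and positive values higher in siPADI2 or R1810. The siPADI2 and R1810 poly(A) points of ANXA1 are at 2.28 and 2.27, and the chromatin point of ANXA1 is at 0.67.

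In chromatin-associated RNA 3 annexins rose after siPADI2, 3 fell and 4 did not pass the test, in a fit of 33879 genes of which 12.2% were called higher and 20.1% lower. ANXA1, ANXA3 and ANXA4 rose, and ANXA5, ANXA9 and ANXA11 fell. The whole chromatin comparison followed the GC content of the transcripts: the median log2 fold change of all genes was 0.45 in the bin of lowest GC, then 0.38, 0.12, −0.42 and −0.98 in the bin of highest GC, with genes in 5 equal bins. The 3 rising annexins had 38.9% to 40.0% GC and the 3 falling ones 46.3% to 55.2%. With a correction for GC content, none of the 3 rising annexins kept its edgeR call, and 1 of the falling ones did. DESeq2 called ANXA3, ANXA9 and ANXA11 and did not call ANXA1 (log2 fold change 0.63, DESeq2 adjusted p = 0.163). Of the 10 luminal markers 0 rose and 5 fell in the same comparison. Of the 7 basal markers 1 rose and 0 fell, and of the 6 fibroblast markers 0 rose and 3 fell. Of 3 immune markers tested 1 rose and 1 fell, and of 2 endothelial markers 0 rose and 2 fell. The part of all these markers in these results was not tested. Only exonic reads were counted, so introns of nascent RNA do not enter these values.

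ANXA1 had 32.3 and 35.4 CPM in siPADI2 chromatin libraries, from 91 and 100 counts, against 22.4 and 20.2 CPM in siCtrl, from 138 and 137 counts. The groups did not overlap and the log2 fold change was 0.67 (SE 0.215, edgeR adjusted p = 0.00908), or 0.26 with GC correction (edgeR adjusted p = 0.371). The call was also lost without siPADI2 replicate 2 (0.61, edgeR adjusted p = 0.101) and without siCtrl replicate 5 (0.56, edgeR adjusted p = 0.141). ANXA3 had 26.6 and 28.7 CPM in siPADI2 chromatin libraries, against 14.3 and 13.5 CPM in siCtrl (log2 fold change 0.99, SE 0.234, edgeR adjusted p = 0.000266). With GC correction ANXA3 stood at 0.58 (edgeR adjusted p = 0.0502), and no single library decided its call. ANXA4 had 43.7 and 40.0 CPM in siPADI2 chromatin libraries, against 29.5 and 27.5 CPM in siCtrl (log2 fold change 0.55, SE 0.205, edgeR adjusted p = 0.0258). It lost its call with GC correction (0.13, edgeR adjusted p = 0.653) and when any 1 of the 4 libraries was left out (0.46 to 0.62).

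ANXA11 had 27.7 and 23.0 CPM in siPADI2 chromatin libraries, against 42.0 and 45.5 CPM in siCtrl (log2 fold change −0.79, SE 0.211, edgeR adjusted p = 0.00155). Its value was −0.50 with GC correction (edgeR adjusted p = 0.0689) and −0.65 without siPADI2 replicate 2 (edgeR adjusted p = 0.0775). ANXA9 had 21.3 and 20.5 CPM in siPADI2 chromatin libraries, against 38.6 and 35.3 CPM in siCtrl (log2 fold change −0.82, SE 0.219, edgeR adjusted p = 0.00144), and −0.25 with GC correction (edgeR adjusted p = 0.418). ANXA5 had 73.1 and 50.0 CPM in siPADI2 chromatin libraries, against 95.3 and 87.5 CPM in siCtrl (log2 fold change −0.57, SE 0.212, edgeR adjusted p = 0.0268). ANXA5 was the annexin still called with GC correction (−0.80, edgeR adjusted p = 0.00954), but it lost its call without siPADI2 replicate 2 (−0.32, edgeR adjusted p = 0.477), without siCtrl replicate 1 (−0.51, edgeR adjusted p = 0.153) and without siCtrl replicate 5 (−0.67, edgeR adjusted p = 0.0817).

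The other 4 did not pass in chromatin RNA. ANXA2 had 292.1 and 221.1 CPM in siPADI2 libraries and 248.9 and 247.3 CPM in siCtrl, ANXA6 254.1 and 183.2 CPM and 240.4 and 226.4 CPM, and ANXA7 87.0 and 76.2 CPM and 79.8 and 69.5 CPM, all with overlapping groups. ANXA13, nearly silent in poly(A) RNA, had 17.4 and 28.0 CPM in siPADI2 chromatin libraries, from 49 and 79 counts, against 15.6 and 16.3 CPM in siCtrl, from 96 and 111 counts (log2 fold change 0.51, SE 0.238, edgeR adjusted p = 0.0874). Without siPADI2 replicate 1 it stood at 0.80 (edgeR adjusted p = 0.0305). Genes of other cell types were also counted more in chromatin than in poly(A) RNA: the 4 immune markers summed to 59.8 to 84.5 CPM in chromatin RNA, beside at most 0.384 CPM in poly(A) RNA, so a chromatin level of this size does not set ANXA13 apart from them. In siCtrl chromatin libraries PTPRC had 40.2 and 40.0 CPM, CD14 14.1 and 13.25, LYZ 9.73 and 5.89, and CD68 0.486 and 0.589. In siPADI2 chromatin libraries PTPRC had 58.9 and 51.7 CPM and LYZ 22.0 and 14.9, both higher. CD14 was lower there, at 2.84 and 9.57 CPM, and CD68 had 0.710 and 0.354 CPM. The siCtrl chromatin means of ANXA3 (13.9 CPM), ANXA1 (21.3 CPM), ANXA4 (28.5 CPM) and ANXA9 (37.0 CPM) lay within the siCtrl range of these markers. That of ANXA11 (43.7 CPM) lay just above it. The part of such signal in the chromatin effects of these annexins was not tested.

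**Figure D4:**
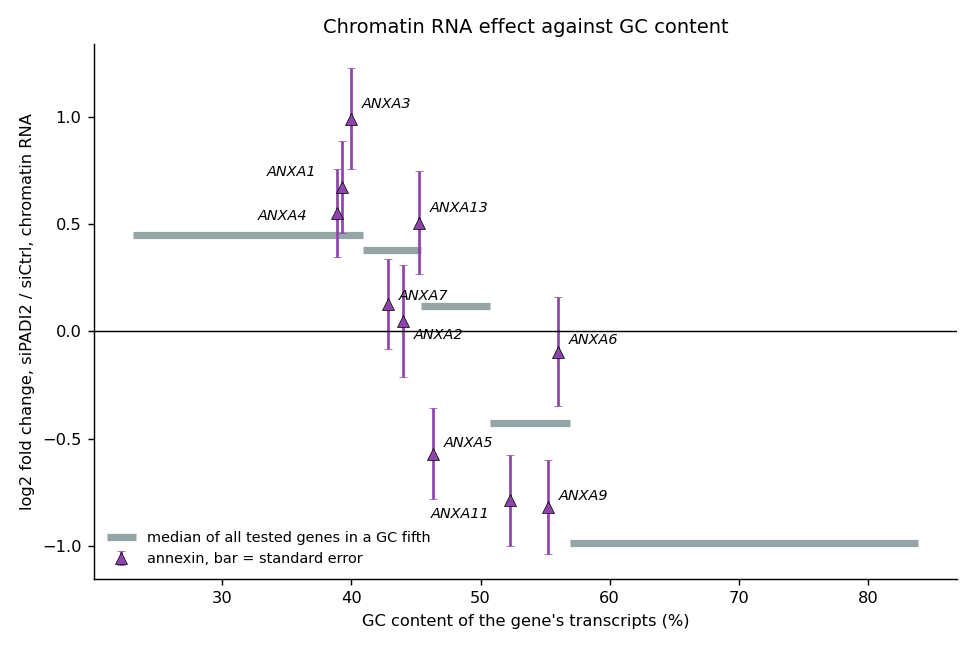
The x axis is the GC content of a gene's transcripts in percent and the y axis the log2 fold change of siPADI2 over siCtrl in chromatin RNA, with triangles for annexins (bars are standard errors) and grey bars for the median of all tested genes in each GC bin. Low-GC annexins lie above 0 and most high-GC annexins below it, as do the grey bars.

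The siPADI2 effect was smaller in chromatin RNA than in poly(A) RNA for ANXA1. The difference of the effects, chromatin minus poly(A), was −1.81 on the log2 scale (SE 0.387, edgeR interaction test over 44615 genes, adjusted p = 1.6e-04). Over 13 alternatives it ran from −2.14 to −1.44, with adjusted p from 1.56e-12 to 0.00687. In that fit 1.71% of genes were called higher and 6.34% lower, and of the 10 annexins 0 were called higher and 1, ANXA1, lower. At an unadjusted p under 0.05 edgeR gave 1 higher, ANXA11, and 1 lower, and DESeq2 called the same 2 genes. The share of calls that were higher was 21.2%, against 48.8% with relative log expression size factors and 49.2% with GC correction. ANXA11 fell less in chromatin RNA by 0.78, which did not pass (edgeR adjusted p = 0.279) but passed in 9 of the 13 alternatives, at 0.826 to 1.404, among them those without siPADI2 chromatin replicate 1 or 2, siCtrl chromatin replicate 1 or 5, or siCtrl poly(A) replicate 1. ANXA4 and ANXA5 did not pass but did without siCtrl poly(A) replicate 2, at −0.78 (edgeR adjusted p = 0.0265) and −0.98 (edgeR adjusted p = 0.0093), and ANXA5 also without siPADI2 chromatin replicate 1 (−0.76, edgeR adjusted p = 0.0102). The 2 kinds of RNA were prepared with different library kits, so a kit effect on either arm and the RNA fraction cannot be told apart.

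S100 proteins are small calcium-binding proteins, several of which dock on annexin tails. After siPADI2 in poly(A) RNA, 4 of the 12 listed genes rose, 4 fell and 4 were not called, near the 28.8% and 27.9% of all genes, with a median log2 fold change of −0.06. S100A6, known as a partner of ANXA11, had 890.3 and 751.3 CPM in siPADI2 libraries, against 398.8 and 342.8 CPM in siCtrl (log2 fold change 1.15, edgeR adjusted p = 2.68e-12). S100A10, the ANXA2 partner, had 341.5 and 325.1 CPM in siPADI2 libraries, against 459.0 and 495.4 CPM in siCtrl (log2 fold change −0.52, edgeR adjusted p = 2.21e-06). S100A11, the ANXA1 partner, had 809.3 and 786.5 CPM in siPADI2 libraries, against 992.3 and 1093 CPM in siCtrl (log2 fold change −0.39, edgeR adjusted p = 0.000288). The best-known partners of ANXA1 and ANXA2 were thus lower in the siPADI2 poly(A) libraries, in which ANXA1 was higher and ANXA2 was not called. In R1810 against WT, where ANXA1 was also higher, neither partner was called (S100A10 −0.17, edgeR adjusted p = 0.0521, S100A11 −0.0056, edgeR adjusted p = 0.964). In chromatin RNA neither was called after siPADI2 (S100A10 −0.16, edgeR adjusted p = 0.588, S100A11 −0.16, edgeR adjusted p = 0.562).

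S100P had 8.70 and 8.53 CPM in siPADI2 libraries, against 18.5 and 18.4 CPM in siCtrl (log2 fold change −1.098, edgeR adjusted p = 1.8e-11). S100P ran the other way in the polymerase libraries, with 8.99 and 8.73 CPM in R1810 and 4.98 and 5.35 CPM in WT. S100A13 had 46.3 and 42.3 CPM in siPADI2 poly(A) libraries, against 22.3 and 21.6 CPM in siCtrl (log2 fold change 1.02, edgeR adjusted p = 4.99e-12). In chromatin RNA S100A13 was lower, with 7.81 and 8.15 CPM in siPADI2 and 15.2 and 18.7 CPM in siCtrl (log2 fold change −1.09, edgeR adjusted p = 0.00182), and S100A9 had 3.19 and 2.48 CPM in siPADI2, against 6.97 and 10.5 CPM in siCtrl (log2 fold change −1.61, edgeR adjusted p = 0.0017). In all, 0 of the 12 rose and 4 fell in chromatin RNA, where 12.2% and 20.1% of all genes were called. The counts were 0 and 5 at an unadjusted edgeR p under 0.05, but with GC correction 1 rose and 0 fell. The number that fell was 1 with DESeq2 and 1 without siCtrl replicate 5.

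Of the 17 listed receptors, binding partners and kinases, 13 were tested in poly(A) RNA, where 3 rose and 6 fell after siPADI2. In that comparison 28.8% of all genes were called higher and 27.9% lower. The median log2 fold change was −0.24, beside 0.005 for all genes. With total counts as library sizes, 4 of the list rose and 4 fell. SRI, or sorcin, a calcium sensor that binds ANXA7 and ANXA11, had 42.1 and 43.2 CPM in siPADI2 libraries, against 84.6 and 95.4 CPM in siCtrl (log2 fold change −1.08, edgeR adjusted p = 8.63e-14). FPR3, a formyl peptide receptor, had 0.194 and 0.153 CPM in siPADI2 libraries, from 23 and 21 counts, against 1.75 and 1.80 CPM in siCtrl (log2 fold change −3.36, edgeR adjusted p = 5.72e-14). FPR1, a receptor through which ANXA1 is known to signal, was barely present, with 1 to 10 counts in each poly(A) library. FPR1 and FPR2 did not pass the expression filter and were not tested there.

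In chromatin RNA 3 of the 17 rose and 4 fell, where 12.2% and 20.1% of all genes were called. The counts were 1 and 5 with GC correction, 0 and 1 with DESeq2, 3 and 1 with total counts, 1 and 2 without siPADI2 replicate 1, 2 and 0 without siPADI2 replicate 2, and 1 and 1 without siCtrl replicate 5. FPR1 had 5.68 and 11.7 CPM in siPADI2 chromatin libraries, from 16 and 33 counts, against 4.22 and 3.53 CPM in siCtrl (log2 fold change 1.16, edgeR adjusted p = 0.0155). FPR3 had 10.3 and 7.44 CPM in siPADI2 chromatin libraries, against 2.43 and 5.74 CPM in siCtrl (log2 fold change 1.0975, edgeR adjusted p = 0.0203, and 0.75 with GC correction, edgeR adjusted p = 0.202). ANXA2R, named as a receptor of ANXA2, had 9.58 and 6.73 CPM in siPADI2 chromatin libraries, against 16.7 and 18.3 CPM in siCtrl (log2 fold change −1.098, edgeR adjusted p = 0.00144). FPR3 was thus called lower in poly(A) RNA and higher in chromatin RNA after siPADI2, at low counts in both. The chromatin call was lost with GC correction and with DESeq2.

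Of the 17 membrane repair genes, 15 were tested in poly(A) RNA, where 4 rose and 5 fell (background 28.8% and 27.9%). The poly(A) counts were 6 and 2 with total counts, 2 and 5 without siPADI2 replicate 1, and 4 and 2 without siPADI2 replicate 2. In chromatin RNA 0 rose and 5 fell (0 and 6 at an unadjusted edgeR p under 0.05), or 1 and 3 with GC correction, 0 and 3 with DESeq2 and 0 and 3 without siPADI2 replicate 2. Of all genes in chromatin RNA, 12.2% were called higher and 20.1% lower. None of the listed genes passed a 2-fold change in poly(A) RNA. In chromatin RNA DYSF, the membrane repair protein dysferlin, had 17.0 and 27.3 CPM in siPADI2 libraries, against 47.8 and 57.3 CPM in siCtrl (log2 fold change −1.25, edgeR adjusted p = 2.38e-07, and −0.44 with GC correction, edgeR adjusted p = 0.138). CAV1, or caveolin-1, had 2.13 and 3.54 CPM in siPADI2 chromatin libraries, against 8.59 and 7.95 CPM in siCtrl (log2 fold change −1.53, edgeR adjusted p = 0.00341), and at most 10 counts in any poly(A) library.

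ANXA1 is known as a glucocorticoid-induced gene, so other such genes and the receptor gene NR3C1 were listed beside it. In poly(A) RNA 1 of the 7 tested rose after siPADI2 and 4 fell, with a median log2 fold change of −0.30, where 27.9% of all genes were called lower. The number that fell was 2 with total counts and 2 without siPADI2 replicate 2. In the R1810 libraries 1 was higher, DUSP1, and 4 were lower, NR3C1 among them. In that comparison 22.6% of all genes were called higher and 24.3% lower. TSC22D3, a classic glucocorticoid target known as GILZ, had 38.5 and 36.7 CPM in siPADI2 libraries, against 99.9 and 101.6 CPM in siCtrl (log2 fold change −1.42, edgeR adjusted p = 1.33e-17). The 1 gene that rose was NR3C1, the glucocorticoid receptor itself (log2 fold change 0.27, edgeR adjusted p = 0.0183), which was not called with GC correction. In chromatin RNA 2 of the 8 fell, or 1 with GC correction, with DESeq2, with total counts or without any 1 library. Of all genes in chromatin RNA, 12.2% were called higher and 20.1% lower. PER1, a clock gene with a glucocorticoid-responsive promoter, had 14.2 and 16.7 CPM in siPADI2 chromatin libraries, against 33.7 and 34.5 CPM in siCtrl (log2 fold change −1.14, edgeR adjusted p = 1.59e-05, and −0.15 with GC correction, edgeR adjusted p = 0.691).

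**Figure D5:**
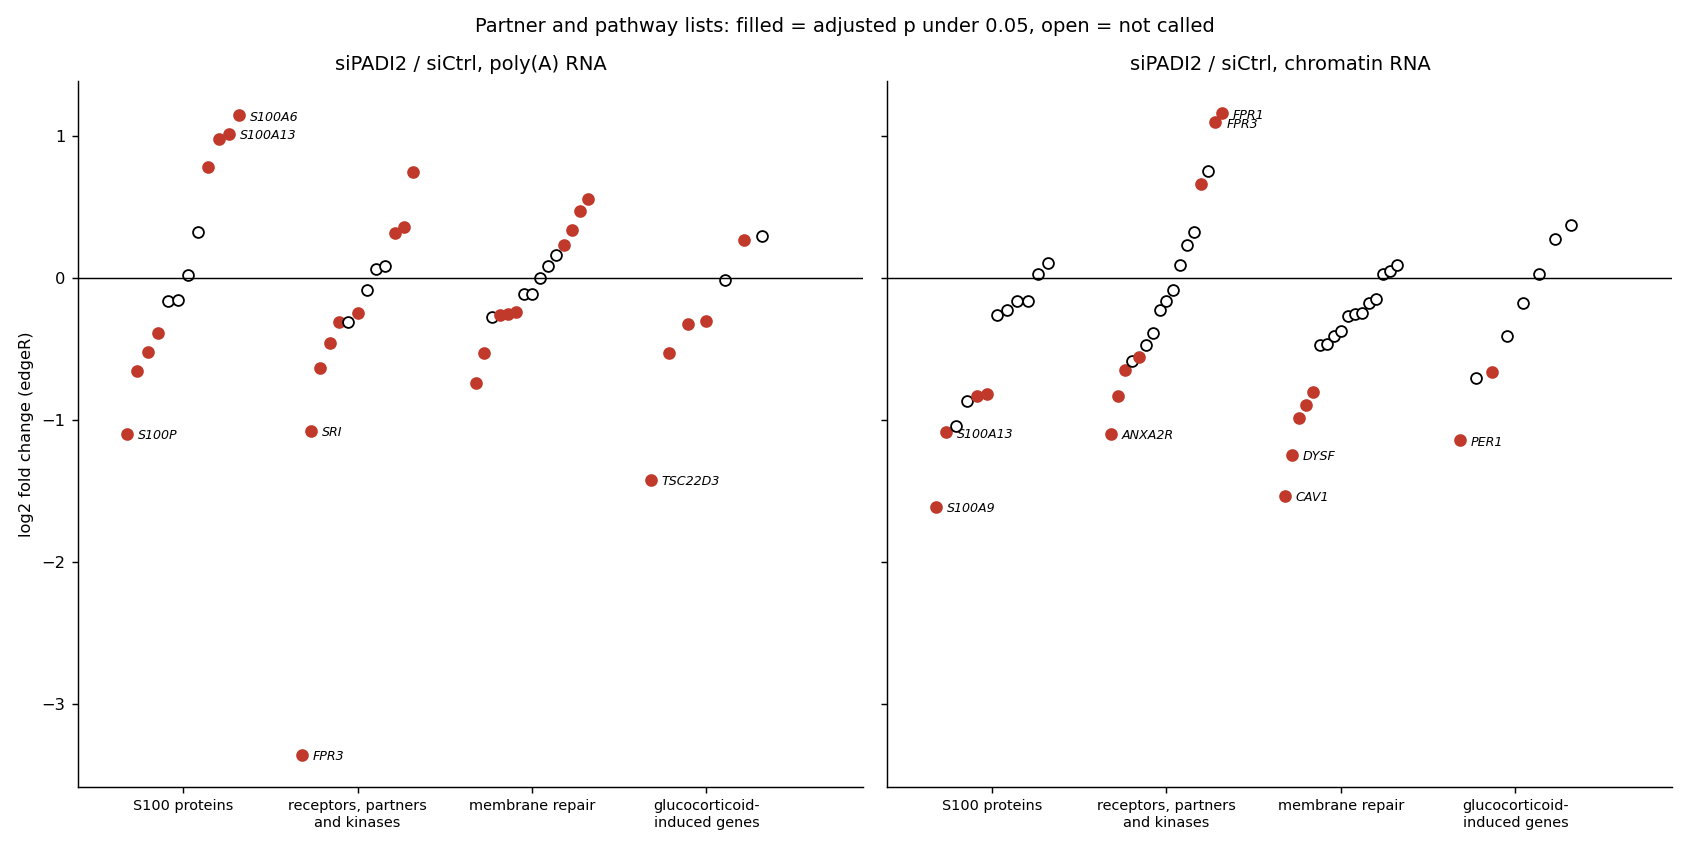
Each point is 1 gene of a list, the y axis is the log2 fold change of siPADI2 over siCtrl, filled points have an adjusted p under 0.05 and genes with at least a 2-fold change are named. Lists have points on both sides of 0 in poly(A) RNA, with FPR3 lowest at −3.36.

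The genes whose levels followed ANXA1 most closely over the 8 poly(A) libraries were RPGR (Pearson r = 0.997), A2ML1 (0.997), TTLL9 (0.997), RPGRIP1L (0.996) and CDKAL1 (0.996), by log2(CPM + 1) among 13568 genes with a mean of at least 1 CPM. These r are descriptions, since the 8 libraries fall into 4 groups and any gene with the same order of group means scores high. A2ML1, a protease inhibitor, averaged 3.33 CPM in siPADI2 and 0.558 CPM in siCtrl, and 5.84 CPM in R1810 and 1.66 CPM in WT. RPGR, a protein of the ciliary transition zone, averaged 10.1 CPM in siPADI2 and 3.33 CPM in siCtrl, and 15.5 CPM in R1810 and 6.02 CPM in WT. Within the family ANXA7 (0.891), ANXA3 (0.884) and ANXA4 (0.771) were closest to ANXA1, ANXA6 (0.487), ANXA5 (0.386) and ANXA2 (0.383) were further off, and ANXA9 (−0.752) and ANXA11 (−0.864) ran against it.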

How the data were processed

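The deposited files hold raw fragment counts per gene, which per the file headers were made by featureCounts 1.5.1 (poly(A) RNA) or 1.4.6-p2 (chromatin RNA) from read pairs over GENCODE 19 exons on hg19, with reverse-stranded counting. The gene length per row is another value of the deposited tables. Trimmomatic and STAR are named in the submitters' processing notes. Reads were not split between genes that overlap or share sequence.

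Each comparison was fitted separately with edgeR 4.0.16 (TMM scaling, default expression filter, quasi-likelihood test, Benjamini-Hochberg adjustment over all genes tested, threshold 0.05), in R 4.3.3. CPM are TMM-scaled within a comparison. The difference of the siPADI2 effects was an interaction term over the 8 siPADI2 and siCtrl libraries. The alternatives were DESeq2 1.42.0, other size factors, no filter, GC correction, a replicate block and leaving out each library. Scripts were tested on simulated counts. Per coding length was an alternative chosen after seeing the data, from the longest GENCODE 29 coding sequence. All 10 annexins are named. List genes are named at an adjusted p under 0.05 with at least a 2-fold change in a knockdown comparison, at most 4 per list, plus S100A10, S100A11, ANXA2P2, PADI2, POLR2A and the 5 genes most like ANXA1. NR3C1, DUSP1 and the markers KRT5, MYLK, ACTA2, FN1, COL1A1, PTPRC, CD14, LYZ and CD68 were named after their values were seen. The members and lists were chosen with earlier results of these data known.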

Additional observations from a re-analysis of the deposited data

Results flagged for a closer look

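The siPADI2 effect on ANXA1 differed between the kinds of RNA, by −1.81 on the log2 scale for chromatin minus poly(A) (edgeR interaction test, adjusted p = 0.00016). ANXA5 lay below both siCtrl libraries in both siPADI2 poly(A) libraries and above both WT libraries in both R1810 libraries. It was not called after siPADI2 (log2 fold change −0.13, edgeR adjusted p = 0.187, and 0.05 with total counts), and the siPADI2 effect minus the R1810 effect was −0.29 on the log2 scale, a difference that was not tested.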

How the results depend on the processing

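After siPADI2 in poly(A) RNA, 4 annexins were higher and 2 lower under 10 of the 11 alternatives tried, and 5 and 2 with total counts, where ANXA6 also passed. Samples shared only a number, with a correlation of same-numbered deviations of 0.24 for siPADI2 and 0.742 for R1810 over 2 pairs each, and with the replicate block 4 and 2 annexins were called after siPADI2 and 5 and 1 in R1810. In R1810, where counts are a description only, 5 annexins were past the threshold in the higher direction with total counts, with the replicate block and in a joint fit, and 3 to 5 with a library left out. In chromatin RNA the number higher was 1 with DESeq2, 0 with GC correction and 1 to 3 with a library left out, and the number lower was 1 with GC correction and 1 to 3 with a library left out. No block could be fitted there, since the groups share 1 number. For the difference between the kinds of RNA, the number higher was 1 with relative log expression size factors, 1 with total counts, 1 with DESeq2, 2 with GC correction and 0 to 1 with a library left out, and the number lower was 2 with GC correction and 1 to 3 with a library left out. ANXA9 reversed there, at 0.82 with GC correction and −0.16 without. The cause of these changes was not tested. Chromatin libraries held fewer counts than poly(A) libraries, and the part of depth in the chromatin calls was not tested.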
